A study of Phoxinus septimaniae with 18 samples.

Results

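Gills and brain of wild minnows were compared across all 12 libraries of those tissues, out of 18 libraries in the series. The fish are an invasive form (Phoxinus septimaniae x P. dragarum) from the Llobregat River. There were 3 gill and 3 brain libraries from the salt station, close to potash mining and at 18.1 ppt, and 3 of each from a less saline reference station upstream. The fish were sampled from the river, with no further treatment, genotype or age given in the labels used here. Counts of assembled transcripts in the 2 tissue tables were joined on the transcript identifier. They were then summed per assembled gene, meaning a gene of the Trinity assembly together with the first protein hit its transcripts list. This gave 40708 assembled genes in either table, 20608 in both, 8554 listed only in gills and 11546 listed only in brain. A transcript missing from a table lay below that table's filter of 1 CPM (counts scaled to a common library total) in 2 libraries, and is not known to be absent.

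The fish gill is the main surface for gas exchange, for the uptake or secretion of salt and for the excretion of ammonia. Its thin epithelium holds pavement cells, mucous cells and mitochondria-rich ionocytes, around blood spaces lined by pillar cells and filled with red and white blood cells. The brain is made of neurons and glia, whose transcripts are rich in synaptic proteins, receptors and ion channels. Identifiers carry protein accessions and a predicted number of transmembrane segments, but gene symbols are not paired with the accessions. The marker genes of neurons, ionocytes, blood cells and other cell types therefore could not be looked up (0 symbols matched), and the tissue labels were not checked by them. Accessions are given below without gene names or roles, and genes are grouped by the segment number. Membrane proteins with 4 segments include claudins of tight junctions, those with 7 include G protein-coupled receptors, and many solute carriers have about 12. In whole tissue, fewer cells of a type and less RNA per cell cannot be told apart.

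Total counts ran from 15200774 to 24222245 per gill library and from 23678725 to 28731252 per brain library, so depth moved with tissue and its part in the results was not tested. One library goes against its label. The gill library labelled salt 3 used the same leading transcript as gill reference 1 in 86.0% of 5137 multi-transcript genes, against 66.0 to 73.0% for the 29 other pairs of libraries within a tissue. With the brain of reference fish 1 it shared 77.4%, and with the brain of its own fish code 64.8%. Calls, shares and liver listing were therefore also computed without both gill libraries, and transcript use was compared without the one labelled salt 3 where stated. The series text counts 6 fish, 3 per station, while the sample codes of gills and brain name 9, of which 3 occur in both tissues. The tissues were therefore not treated as pairs from the same fish, and the main tests took the libraries as independent. The codes of gill reference 2 and 3 carry the letter A, where gill reference 1 and the reference brains carry C. The labels do not say what the letter marks, and its part in the results was not tested.

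Most assembled genes listed in both tissues differed between gills and brain, in nearly equal numbers each way. Of 20608 genes tested with edgeR, station being a covariate, 11760 passed an adjusted p of 0.05 (57.1%). In gills 5968 were higher (29.0%) and in brain 5792 (28.1%). The differences were often large: 2744 genes were at least 4-fold higher in gills and 2785 in brain, and 158 and 290 were at least 64-fold higher. The median size of a called difference was 1.84 on the log2 scale in gills and 1.94 in brain. At least 16-fold, brain had more, 972 (4.72%) against 671 in gills (3.26%). Part of this size rests on transcripts unlisted in the lower tissue, which were summed as 0. With each of those set to 1 CPM, 5869 and 5778 genes were called, and 416 in gills and 686 in brain reached 16-fold. That level is not an upper limit, since an unlisted transcript can exceed 1 CPM in 1 library.

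**Figure D1:**
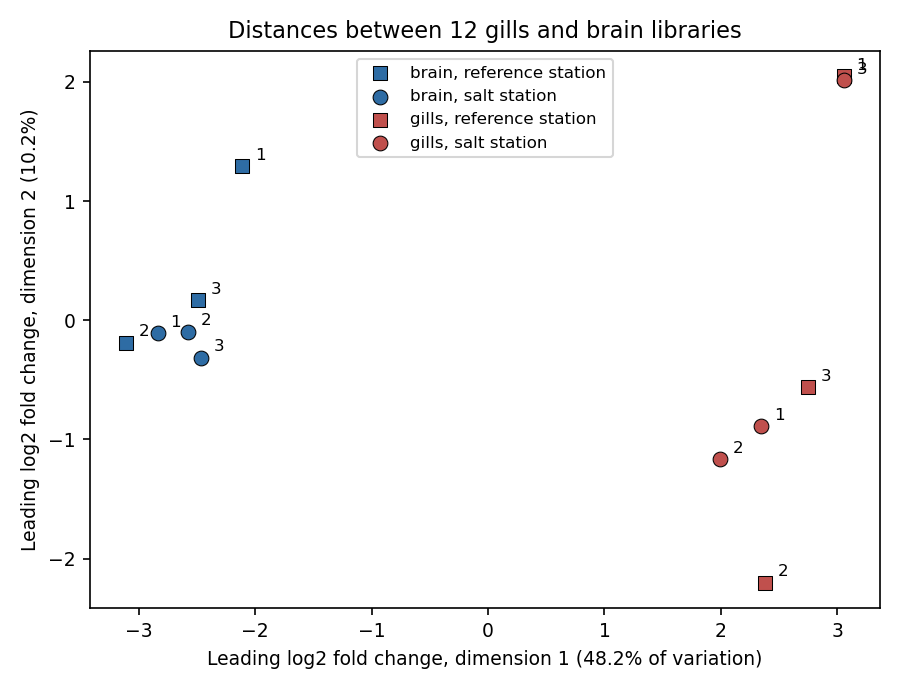
Multidimensional scaling of the 12 libraries, from the 2000 genes that differ most between each pair, with axes in leading log2 fold change, colours for tissue, shapes for station and numbers for replicates. All gill libraries lie at 1.99 or above and all brain libraries at -2.11 or below on dimension 1, which holds 48.2% of the variation, and gills reference 1 and the library labelled gills salt 3 nearly coincide.

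The 6 gill and 6 brain libraries did not overlap for 8969 genes (43.5%), of which 4341 were higher in every gill library and 4628 in every brain library. The share called rose with abundance. It was 10.4% of 2634 genes with a mean under 2 CPM, 49.0% of 6617 from 2 to 10 CPM, 69.4% of 7216 from 10 to 50 CPM and 78.2% of 4141 at 50 CPM or more. From 10 CPM upward more genes were higher in gills (2575 against 2430, then 1718 against 1520), and below it more were higher in brain (1559 against 1684, and 116 against 158). At the other end, 3636 genes (17.6%) had a 95% interval of the difference that lay within 2-fold either way, 820 of them called. For 6032 genes that were not called, the interval reached past 2-fold, so a difference of that size is not excluded for them. Without gill reference 1 and the library labelled gill salt 3, 5467 and 5387 genes were called.

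**Figure D2:**
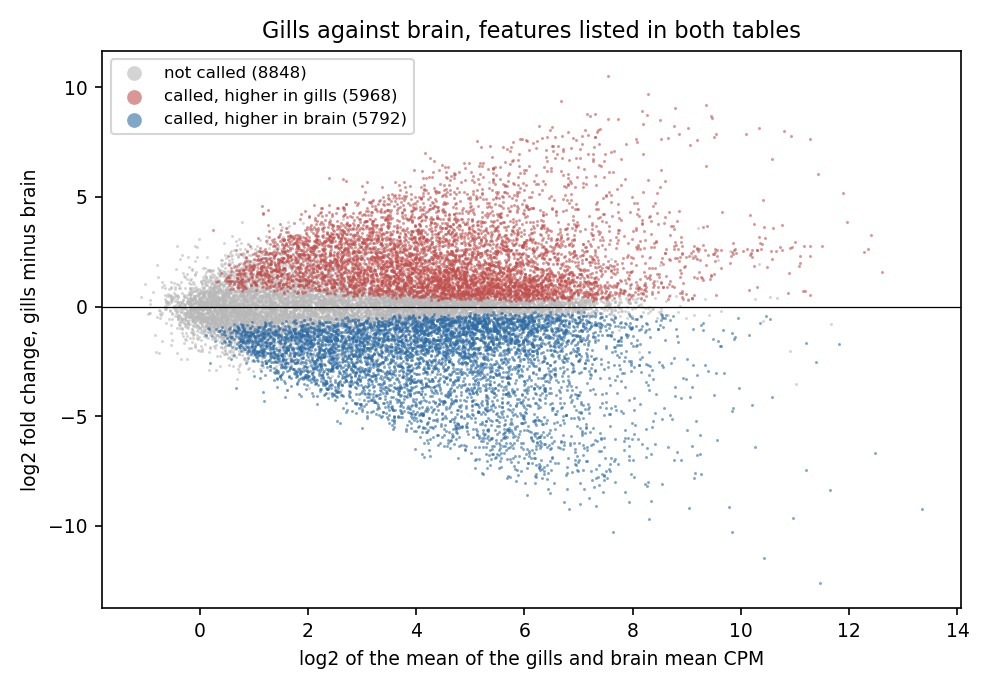
Each point is 1 of 20608 assembled genes, with the log2 of the mean CPM of both tissues on the x axis and the log2 fold change, gills minus brain, on the y axis. Called genes are coloured by the higher tissue, 5968 for gills and 5792 for brain, and the fold changes run from -12.58 to 10.51.

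The most abundant genes of the tissues were mostly different ones. None of the 10 with the highest mean in gills was among the 10 highest in brain (0 shared), and the lists of 50 shared 8. Of the 1000 most abundant, 355 were shared, or 35.5% of each list. Among the leading 50 of gills, 48 were called higher in gills, and among those of brain 34 were higher in brain and 7 in gills. The lists were picked by their level in these libraries, so these counts only describe them. In brain 3 of these 50 were unlisted in gills, and in gills 0 were unlisted in brain.

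Gill counts were more concentrated in a broad set of abundant genes. The 100 most abundant took 25.2 ± 1.59% of a gill library and 19.99 ± 2.52% of a brain library (SD, n = 6; exact two-sided permutation p = 0.00649, 0.00767 after Benjamini-Hochberg adjustment over 13 shares). Brain reference 2, at 24.9%, overlapped the gills, while the other brains were at 17.8 to 19.9%. A share of 50% of all counts was reached with 658 to 859 genes in gills and 1008 to 1295 in brain. The 10 most abundant alone took 7.06 ± 0.608% in gills and 8.19 ± 2.23% in brain, a difference within the spread of the libraries (n = 6; exact permutation p = 0.277).

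The largest differences with a mean of at least 50 CPM and no overlap were taken as examples, 2 in each direction. They come from 1915 such genes in gills and 1960 in brain. Their lack of overlap, large difference and small adjusted p were fixed by this choice, so the values only describe them. All 4 have a first hit with the code DANRE, used here for zebrafish proteins. ENSDARP00000081386, with 1 predicted segment, stood in gills at 393, 285 and 400 CPM in salt 1, 2 and 3 and at 421, 446 and 294 CPM in reference 1, 2 and 3. In brain it was at 1.05 and 1.06 CPM in reference 1 and 3 and at 0 in the 4 other libraries. All gill libraries were far above all brain libraries, at both stations. The means were 373 ± 67.4 and 0.352 ± 0.545 CPM (SD, n = 6), and gills exceeded brain by 10.51 on the log2 scale (SE 1.09, edgeR adjusted p = 7.11e-06).

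ENSDARP00000036336, also with 1 segment, stood at 721, 422 and 621 CPM in the salt gills and at 704, 745 and 511 CPM in the reference gills. Its brain values were 4.37, 0 and 1.69 CPM at the reference station and 0, 0.583 and 0 CPM at the salt station. By the choice of examples the tissues did not overlap here either. The difference was 9.68 on the log2 scale (SE 1.27, edgeR adjusted p = 4.68e-05). Only 1 of its 4 transcripts and 1 of the 5 of ENSDARP00000081386 are listed in brain. With the others at 1 CPM, the log2 fold changes were 7.29 and 6.45.

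In brain, ENSDARP00000075079, with 0 segments, was both high and even. It stood at 2495, 3380 and 2235 CPM in reference 1, 2 and 3 and at 3067, 2723 and 2526 CPM in salt 1, 2 and 3. In gills it was at 2.95 CPM in reference 2, at 3.05 CPM in salt 1 and at 0 in the 4 other libraries. The means were 2738 ± 419 and 1.00 ± 1.55 CPM (n = 6), with a log2 difference, gills minus brain, of -11.48 (SE 1.52, edgeR adjusted p = 5.00e-05).

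ENSDARP00000072616, with 0 segments, had the largest difference of all genes tested and a very uneven level among brains. Its values were 34.6, 8011 and 603 CPM in reference brains 1, 2 and 3 and 5161, 9318 and 10715 CPM in salt brains 1, 2 and 3. In gills it stayed between 0 and 2.64 CPM. The lowest brain, reference 1, was still above every gill library. Gills minus brain was -12.58 on the log2 scale (SE 1.65, edgeR adjusted p = 4.67e-05), and limma on voom values did not call it (adjusted p = 0.120). In gills 5 of its 6 transcripts and 4 of the 5 of ENSDARP00000075079 are unlisted. With these at 1 CPM, the log2 fold changes were -9.69 and -9.09.

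**Figure D3:**
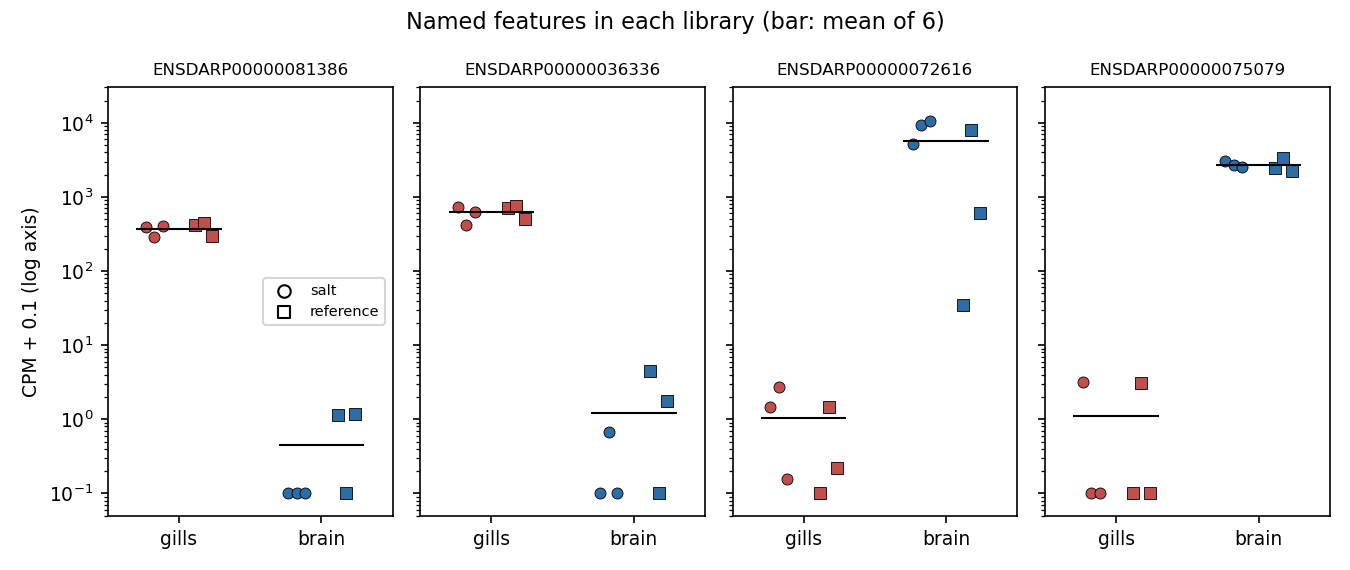
Level of the 4 example genes in each library, as CPM + 0.1 on a log axis, with circles for the salt and squares for the reference station and a bar at the mean of 6 libraries. ENSDARP00000081386 and ENSDARP00000036336 lie at 285 CPM or more in every gill library, and ENSDARP00000072616 spreads from 34.6 to 10715 CPM among brains.

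In every class with predicted transmembrane segments a larger share of genes was called, in both directions together, than among those with 0. The difference between classes was not tested, nor was the part of abundance, with which the share called rose. Genes with 0 segments had a median mean level of 9.08 CPM in gills and 11.02 CPM in brain. The classes with segments, 7 aside, had medians of 15.03 to 19.09 CPM in gills and 15.995 to 25.95 CPM in brain. Genes with 7 segments went the other way in brain, with medians of 10.98 CPM in gills and 8.25 CPM in brain. Toward gills alone, 35.5% of the genes with 0 segments were called, more than the 32.5% with 5 to 6 and the 34.7% with 12 or more. With 0 segments and a protein hit, 60.6% of 10536 genes were called, and with 1 segment 73.2% of 1428. For 2 to 3 segments it was 72.3% of 506 genes, for 4 segments 75.3% of 190, for 5 to 6 segments 69.5% of 197, for 7 segments 79.4% of 155, for 8 to 11 segments 74.7% of 194 and for 12 or more 76.5% of 98. All genes tested stood at 57.1%.

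The direction varied with the class. Of all genes tested 29.0% were higher in gills and 28.1% in brain. Of the single-segment genes 600 (42.0%) were higher in gills and 445 (31.2%) in brain. Their median log2 fold change was 0.33, against 0.00 for all genes and 0.23 for genes with a hit and 0 segments. All genes include those without a hit, which leaned to brain with a median of -0.40. With a hit and 0 segments, 35.5% were higher in gills and 25.1% in brain. Of the genes with 4 segments, a number that claudins and tetraspanins share with other proteins, 78 (41.1%) were higher in gills and 65 (34.2%) in brain. With 7 segments, a number that includes G protein-coupled receptors but does not identify them, 65 (41.9%) were higher in gills and 58 (37.4%) in brain. The median of that class was 0.16, and -0.033 where a gene was put in a class by the smallest number of segments over its transcripts in place of the largest. That choice makes most membrane classes smaller, with 370 and 261 called among single-segment genes and 40 and 37 among those with 7 segments. With 5 to 6 segments, the build of many ion channel subunits, 73 (37.1%) were higher in brain and 64 (32.5%) in gills. With 12 or more, 41 (41.8%) were higher in brain and 34 (34.7%) in gills. These gaps are of few genes, and the balance of directions was not tested. Medians of the classes with segments lay between -0.18 and 0.33, small beside the size of single differences.

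Among differences of at least 16-fold, brain led in most membrane classes. With 2 to 3 segments 56 genes (11.1%) were that much higher in brain and 23 (4.55%) in gills. With 5 to 6 segments the numbers were 20 (10.15%) and 4 (2.03%), and with 7 segments 20 (12.9%) and 11 (7.10%). The genes with 4 segments were the exception among classes with segments, with 17 (8.95%) in brain and 19 (10%) in gills. Beside these, 4.72% of all genes were that much higher in brain and 3.26% in gills. For genes with a hit and 0 segments the shares were 4.09% in brain and 3.93% in gills.

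**Figure D4:**
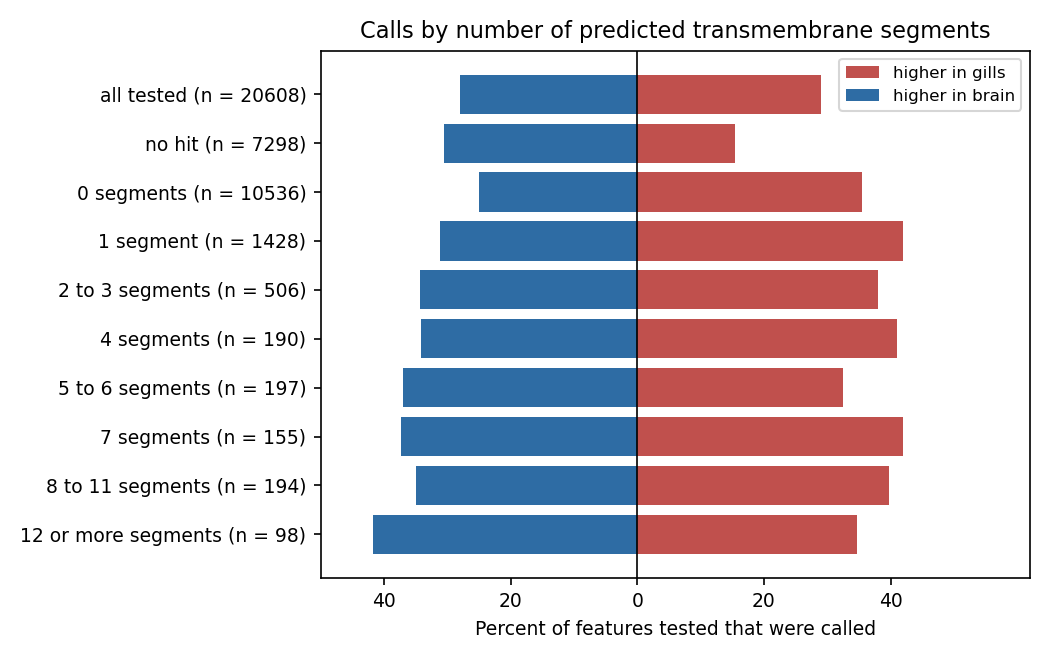
Percent of tested genes called higher in gills (right) and in brain (left), for all genes, genes without a protein hit and genes with a hit grouped by predicted transmembrane segments. Genes without a hit stand out with 15.3% to the right and 30.5% to the left.

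Summed over their genes, the classes with 2 to 11 segments took a larger share of the brain's counts than of the gills'. Each share below is per library, over all counts of its table. The class with 2 to 3 segments took 3.09 ± 0.121% of gill and 4.61 ± 0.150% of brain counts (SD, n = 6; exact permutation p = 0.00216). For 4 segments the shares were 1.22 ± 0.0977% and 1.66 ± 0.111%, for 5 to 6 segments 0.840 ± 0.0361% and 1.17 ± 0.0512%, and for 7 segments 0.603 ± 0.0676% and 0.793 ± 0.0251%. None of these classes had a gill library above a brain library. Their exact permutation p was 0.00216 each with n = 6, the smallest that 6 against 6 libraries can give, and 0.00313 after adjustment over 13 shares. With 8 to 11 segments the shares were 1.01 ± 0.120% and 1.21 ± 0.0516% (n = 6; exact permutation p = 0.00433), and over tested genes alone that difference was no longer significant (exact permutation p = 0.154). In the classes with 2 to 7 segments the brain's mean was also the higher at each station alone, with an exact p of 0.1, the smallest that 3 against 3 can give.

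Genes with 1 segment and with 12 or more went the other way in share. Those with 1 segment took 9.10 ± 0.394% of gill and 8.55 ± 0.244% of brain counts (n = 6; exact permutation p = 0.0173, 0.0188 after adjustment), with overlap between the tissues. Without gill reference 1 and the library labelled gill salt 3 the difference was 0.399 percentage points (exact permutation p = 0.0762). The 5 most abundant single-segment genes in gills took 1.58% of gill and 0.392% of brain counts. All others of that class took 7.52 ± 0.379% of gill and 8.16 ± 0.229% of brain counts (SD, n = 6). The 5 most abundant in brain took 0.491% and 0.666%. These sets were picked by their levels, so the values only describe the class. Those with 12 or more took 1.11 ± 0.106% of gill and 0.667 ± 0.0355% of brain counts (n = 6; exact permutation p = 0.00216), with every gill library above every brain library, although more of these genes were called higher in brain. The difference was 0.466 percentage points at the salt and 0.428 at the reference station. A single gene took 42.8% of the class's counts in gills. It held 0.426 to 0.530% of each gill library, about as much as the class difference of 0.447 percentage points. The higher share in gills is thus of 1 gene and not a trait of the class, and the test was not repeated without it. This gene, ENSDARP00000058869, was singled out after its values were seen.

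ENSDARP00000058869, with 12 predicted segments, stood at 5020, 4066 and 5302 CPM in salt gills 1, 2 and 3 and at 5289, 4939 and 4860 CPM in reference gills 1, 2 and 3. In brain it stood at 17.5, 26.6 and 14.4 CPM at the salt and at 41.3, 29.8 and 21.5 CPM at the reference station. All 5 of its transcripts are listed in both tables. The lowest gill library was far above the highest brain, and the tissues differed by 7.64 on the log2 scale (SE 0.28, edgeR adjusted p = 5.98e-09). The 5 most abundant genes of the class in gills together took 0.780% of gill and 0.0705% of brain counts. The 5 most abundant in brain took 0.0682% of gill and 0.191% of brain counts. Both sets were picked by these levels, so the values only describe how the class is made up.

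**Figure D5:**
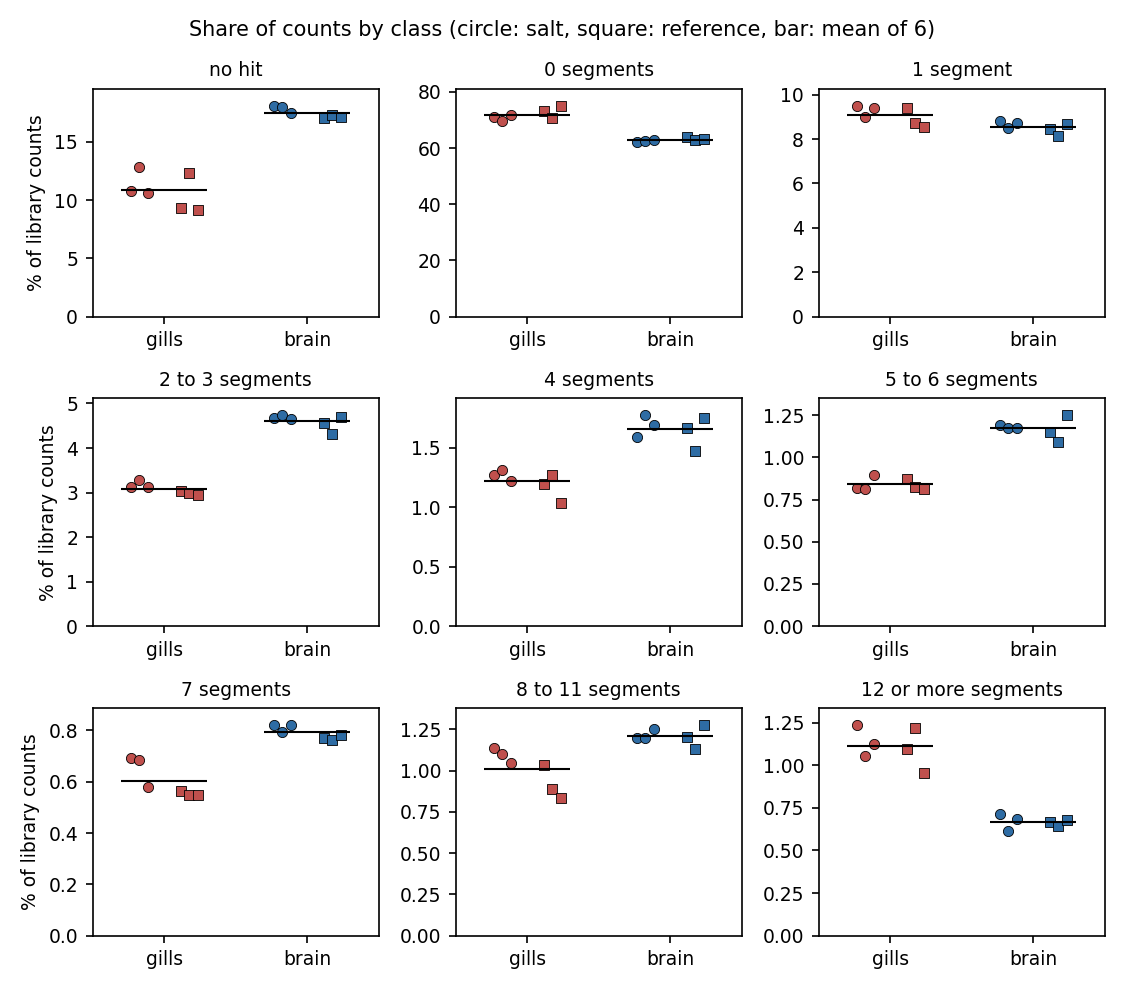
Percent of all counts of a library that fall in each class, with a point per library (circles salt, squares reference) and a bar at the mean of 6, on axes that start at 0. Only the genes with 0, 1 and 12 or more segments have the higher mean in gills, the last with 1.11% against 0.667%.

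Genes with a hit and 0 segments made up most of both tissues, 71.9 ± 1.96% of gill and 62.9 ± 0.562% of brain counts (n = 6; exact permutation p = 0.00216). Of 10536 such genes 3738 (35.5%) were higher in gills and 2642 (25.1%) in brain. Genes without any protein hit leaned to brain. They took 10.8 ± 1.53% of gill and 17.5 ± 0.439% of brain counts (exact permutation p = 0.00216), with no overlap between 9.15 to 12.9% and 17.0 to 18.1%. Of 7298 tested, 1120 (15.3%) were higher in gills and 2226 (30.5%) in brain, with a median log2 fold change of -0.40. What kind of RNA these transcripts are was not tested.

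By the source of the first hit, 11578 genes carried the DANRE code. Of these 4336 (37.5%) were higher in gills and 3124 (27.0%) in brain. Codes other than DANRE, FUGRU, XENTR, HOMSA and MUSMU, mitochondrial codes aside, were the first hit of 330 tested genes. Of that group 58 (17.6%) were higher in gills and 51 (15.5%) in brain. The sigP tag was carried by 90.3% of the tested genes with a hit, too many to mark secreted proteins, and was not used to name a class. Among the 9255 genes with the tag and 0 segments, 3392 were higher in gills and 2407 in brain.

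Brain listed more genes that fell below the filter in the other tissue. The 11546 genes listed only in brain were 35.9% of those listed there and held 10.1 ± 0.814% of its counts. The 8554 listed only in gills were 29.3% and held 4.90 ± 0.578% of its counts (n = 6; exact permutation p = 0.00216). Most were faint, with a median mean level of 1.76 CPM in brain and 1.65 CPM in gills. At 100 CPM or more there were 147 genes in brain and 68 in gills. Every library of the tissue exceeded 16 CPM per listed transcript in 339 brain and 82 gill genes.

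The genes of a single table differed in kind. Of those only in gills, 52.5% had a protein hit, against 27.4% of those only in brain and 64.6% of the genes in both. The full tables lean the same way, with a hit for 37766 of 55872 transcripts listed in gills and 37039 of 62498 in brain. Of the genes with 7 segments, 93 of 248 listed in brain (37.5%) were in brain alone, near the 35.9% of all genes listed there, and 49 of 204 listed in gills (24.02%) were in gills alone. With 5 to 6 segments the numbers were 73 of 270 (27.0%) and 32 of 229 (14.0%), and with 12 or more 23 of 121 (19.0%) and 10 of 108 (9.26%). Both classes lie below the 35.9% and 29.3% of all genes, but those include genes without a hit. Without a hit, 53.5% of the genes listed in brain and 35.8% of those listed in gills were in that table alone. With a hit and 0 segments it was 18.95% in brain and 27.1% in gills. In brain the classes with 5 to 6 and with 7 segments lay above that, and 12 or more was near it. In gills all these classes lay below it. In gills 685 of the single-table genes had a first hit outside the vertebrate codes named above, 15.3% of those with a hit, against 204 (6.45%) in brain. These took 0.0876 to 0.661% of gill counts and 0.0498 to 0.0725% of brain counts. Of the 13310 genes with a hit listed in both tables, 330 had such a code. The source of these hits was not tested.

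The liver table, not used in the comparison, listed genes of the gills more often than genes of the brain. Genes higher in gills were listed in liver in 81.6% of cases (4871 of 5968), and genes higher in brain in 60.0% (3477 of 5792). Among all genes tested it was 65.5%, and among those not called 58.3%, slightly below the genes higher in brain. For differences of at least 16-fold the gap was wider. Of the 671 genes that much higher in gills, 481 were listed in liver (71.7%), and of the 972 higher in brain, 263 (27.1%). Without gill reference 1 and the library labelled gill salt 3 these shares were 73.6% and 28.3%. Of the 50 most abundant genes, 49 of the gills' and 35 of the brain's were listed in liver. Listing in liver means that at least 1 transcript passed that table's filter. A protein hit was carried by 81.2% of the genes called higher in gills and 61.6% of those higher in brain. Its part in the liver listing was not tested.

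Calls at the stations went the same way. At the salt station 4345 genes were higher in gills and 4419 in brain, 43.0% of 20376 tested, and at the reference station 3997 and 3971, 39.1% of 20366. These fits share no library, though the gill library labelled salt 3 matches reference fish 1. Of the calls, 6722 were made at both stations, 3374 higher in gills and 3348 in brain, and 0 were in opposite directions. These are 76.7% of the 8762 salt and 84.4% of the 7966 reference calls on genes tested at both. The example genes were called at both, though they had been chosen on the libraries of both stations together. At the salt and reference stations ENSDARP00000072616 had log2 differences of -12.56 and -12.68, and ENSDARP00000075079 of -11.45 and -11.58. ENSDARP00000081386 had 16.03 and 9.05, with all salt brains at 0, and ENSDARP00000036336 had 11.60 and 8.30. Fitted values against libraries at 0 depend on the prior count. Salinity and station coincide, so other traits of the stations cannot be told apart from it.

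A direct edgeR test of whether the gills minus brain difference changed with station called 1 of 20608 genes (0.00485%). An unadjusted p under 0.05 was reached by 578 genes (2.80%), a smaller share than that threshold gives with no interaction. It was 1119 genes without gill reference 1 and the library labelled gill salt 3, and 426 to 1200 without each library in turn. The low share therefore does not hold for every set of libraries. The called gene was ENSDARP00000043854, named after its value was seen. Its brain level was 92.6, 82.0 and 113 CPM in reference 1, 2 and 3 and 77.9, 88.3 and 102 CPM in salt 1, 2 and 3. In gills it stood at 4.38, 2.80 and 3.27 CPM at the reference station and at 0 in all salt libraries, the one with the doubtful label included. That library matched gill reference 1 in leading transcripts, yet gill reference 1 had the highest gill value here, 4.38 CPM. These gill values are of 1 transcript, since the 5 others of the gene are unlisted in gills, while all 6 are listed in brain. With 0 counts in all salt gills, that transcript passed the filter through the reference gills alone, so its values only describe it. For that transcript, against 3 counts per library, salt gills were at least 21.3-fold lower than reference gills. The bound does not hold for the gene, whose unlisted transcripts could each lie near 1 CPM in every library and above it in 1. The count of such genes varied with the libraries used. It was 16 without the library labelled gill salt 3, 10 without gill reference 1 and 29 without both. Without gill reference 2 it was 8, without brain reference 1 it was 5 and without brain reference 2 it was 3. Leaving out gill reference 3, brain salt 1 or brain salt 2 gave 2 each.

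Which transcript of a gene was used differed between fish and between tissues. Over 5137 genes with several transcripts in both tables and at least 100 counts in every library, gills and brain of the same fish code had the same leading transcript in 75.9 and 76.4% (2 pairs). Gills and brain of different codes shared it in 60.6 to 66.2% (28 pairs), the library labelled gill salt 3 left out. Libraries of the same tissue from different fish shared it in 66.0 to 73.0% (29 pairs, without that of gill reference 1 and gill salt 3). In the 2 pairs of the same fish code, agreement was higher than between fish within a tissue. The other pair of 1 code, gill salt 3 and brain salt 1, stood at 64.8%, within the range of different codes. It and the gill pair at 86.0% were left out because of their values on this same measure. Whether agreement is higher within a fish was thus not tested. In 1675 genes (32.6%) a single transcript led in all 12 libraries. In 97 genes (1.89%) a transcript led in every gill library and another in every brain library. Of 16807 transcripts, 1348 had a share of their gene that did not overlap between gills and brain (8.02%), in 842 genes.

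Gills varied more among fish than brains did. The median SD of log2(CPM + 1) over 6 libraries was 0.470 in gills and 0.317 in brain, and 71.2% of genes had the larger SD in gills. The gills hold the pair of matching libraries and the lower depths, whose part was not tested.

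Genes whose first hit has a mitochondrial code took 0.259 ± 0.0750% of gill and 0.883 ± 0.736% of brain counts (n = 6, exact permutation p = 0.00216). A mitochondrial transcript with another first hit would not be counted here, so this is not the whole mitochondrial share. In gills 1 gene held 86.9% of the class. The share difference of -0.624 percentage points was -0.325 without brain reference 2 (exact permutation p = 0.00433). That library stood at 2.38%, where the other brains had 0.510 to 0.684%. Of the 6 such genes tested, 0 were called by edgeR. The COX1 values are of 1 assembled transcript, whose first hit is tagged COX1, a core subunit of cytochrome c oxidase. They need not give the level of COX1 as a whole. This transcript stood at 68.7 to 111 CPM in gills and at 126 to 192 CPM in brains other than reference 2, which had 23621 CPM. For this transcript gills minus brain was -3.54 on the log2 scale (SE 1.70, edgeR adjusted p = 0.0972). Without brain reference 2 it was -0.68 and called (edgeR adjusted p = 0.00449).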

How the data were processed

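The authors deposited raw whole-number counts per assembled transcript, a table per tissue, as the values in the files show. The assembly was de novo, per the series description. The submitters' processing notes name Trimmomatic, a read trimmer, and DESeq2. For the aligner and counter the tool is not given in the sources used here. RNA was extracted with a column kit and made into TruSeq libraries, per the labels' protocols. No listed transcript has fewer than 2 libraries at 1 CPM or more, as checked on the counts (0 exceptions).

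Libraries were grouped by title and matched to columns by code. First hits coded TETTH, PARTE, HYPDU, DROME, CAEEL or CAPOW were left out (231 gill and 13 brain transcripts). Counts were fitted with edgeR 4.0.16 in R 4.3.3, on genes in both tables, with full table totals and TMM factors (0.870 to 1.05 in gills, 0.963 to 1.07 in brain). filterByExpr removed none (20608 before and after). The two-sided quasi-likelihood F test with Benjamini-Hochberg adjustment was used. CPM of single genes use TMM-scaled totals, and shares use table totals. The SE is the log2 fold change over the square root of F. Fits were tested on simulated counts.

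The example genes are the 2 called per direction with the largest log2 fold change, at least 50 CPM in the higher tissue and no overlap. COX1 was named by its tag. Members and lists were chosen with earlier results of these data known. Same-numbered gill and brain libraries of a station deviated together with r from -0.152 to 0.330 across genes, so the numbers were not treated as pairs. The same fish code gave 0.330, 0.311 and, for the library labelled gill salt 3, 0.0972. In the limma fit with fish code as a random block the consensus correlation within a code was 0.442. The edgeR fits and permutation tests did not model it. Intervals of log2 differences come from the edgeR fit and include the spread among libraries. The bound of 3 counts covers counting error only. Alternatives were limma 3.58.1, DESeq2 1.42.0, other scalings, filters, sums and left-out libraries.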

Additional observations from a re-analysis of the deposited data

Results flagged for a closer look

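Brain reference 2 stood apart from the other brains in 9 sets of 6 brain libraries. The measure was the gap of an extreme library to its nearest neighbour, relative to the range. In all, 50 sets were examined, each of gill or of brain libraries, so not all 50 held this library. Chance gives about 1 in 20 for a single set. The sets share genes, so the 9 are not independent of each other. Its 10 most abundant genes took 12.5% of counts and its 100 most abundant 24.9%, where the other brains had 6.13 to 8.18% and 17.8 to 19.9%. It needed 1008 genes to reach 50% of counts, against 1188 to 1295. Genes listed only in brain took 11.7%, against 9.45 to 10.19%, and mitochondrial hits 2.38%, against 0.510 to 0.684%. The transcript tagged COX1 stood at 23620 CPM, against 126 to 192. The mitochondrial hit YP_203382.1 stood at 0.471 CPM in TRINITY_DN112276_c2_g1, against 4290 to 5889, and at 0 in TRINITY_DN19962_c0_g1, against 7.98 to 11.99, and in TRINITY_DN80_c2_g1, against 307 to 478.

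The gills minus brain difference of ENSDARP00000043854 differed between stations by -9.19 on the log2 scale (edgeR interaction, adjusted p = 0.00309). The fitted value depends on the prior count, since all salt gills are at 0 for its 1 listed transcript, the 5 others being unlisted in gills. The listed transcript passed the filter through the reference gills alone.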

How the results depend on the processing

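Of 1014 recomputed values, 11 that answer a comparison and 19 others moved, 3 gained a call, 5 lost one and 1 turned. Adding genes of a single table at 0 in the other gave 13552 higher in gills and 17134 in brain, since each of those genes is set against an imputed 0, with 8097 and 11934 at least 16-fold and a median of -0.36. The replicate block, with numbers that do not pair the libraries, gave 5587 and 5681 and changed no call of an example gene. Without scaling factors it was 5579 and 6079, and the median of all genes -0.08. Over transcripts listed in both tables it was 5101 and 5237, and with DESeq2 6369 and 6223. limma gave 5970 and 6124, and 6362 and 6580 with fish code as a random block, where ENSDARP00000072616 was not called (adjusted p = 0.172). Without each library in turn gill calls ran between 5539 and 5918 and brain calls between 5448 and 5991. Within the salt station they ran from 3403 to 4186 and from 3465 to 4637, and within the reference station from 2864 to 4089 and from 2861 to 4459. Station interaction calls ran from 1 to 16, and without gill salt 3 and gill reference 1 there were 29; the cause was not tested. Without that pair the class calls stayed within 1.5 times and, of the shares, the single-segment class lost its call (exact permutation p = 0.0762). The difference in the share of the 10 most abundant genes ran from -1.54 to -0.257 percentage points. Taking the smallest number of segments, the median of the 7-segment genes turned from 0.16 to -0.033, and 12 class counts moved by over 1.5 times; the cause was not tested. Over tested genes alone, 2 share differences were no longer significant (1 segment, exact permutation p = 0.0779; 8 to 11 segments, p = 0.154). COX1 was called without a station term (log2 fold change -5.42) and at the salt station alone (-0.83). Leaving out other single libraries than brain reference 2 left COX1 uncalled. The share difference of mitochondrial hits ran from -0.699 to -0.325 percentage points without each library, the latter without brain reference 2. Setting unlisted transcripts to 1 CPM, and leaving the pair out of classes, shares and liver listing, were chosen after seeing the data.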

Other observations

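Several assembled genes often share a first hit. Of 12045 first hits tested, 785 were carried by several genes. In 307 of these at least 2 genes were called, all in the same direction in 271 and in opposite directions in 36. Whether these are paralogs, alleles or pieces of a gene was not tested.

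A second product of the assembled gene TRINITY_DN112276_c2_g1 mirrors its mitochondrial hit. The transcript whose first hit is ENSDARP00000087881 stood at 11058 CPM of the table total in brain reference 2 and at 0.0845 to 1.14 CPM in the other brains, and is unlisted in gills. The YP_203382.1 product stood at 0.453 CPM in that brain and at 4610 to 6207 CPM in the others, and at 1278 to 3375 CPM in gills. These genes were singled out after their values were seen.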
